A study of Homo sapiens with 9 samples.

Results

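The genes described here are 43 interferon-stimulated and RNA sensing genes, picked by symbol from the transcript profiles of H1993 cells after silencing of *TDRD9*, which encodes a Tudor-domain RNA helicase of the germline piRNA pathway. NCI-H1993 (H1993) is an established human lung adenocarcinoma line that transcribes *TDRD9*. It was transfected with siTDRD9-2, with siTDRD9-1 (both directed against the *TDRD9* transcript) or with a control siRNA (siControl), so all 9 cultures received an siRNA. Each of the 3 groups had 3 independent cultures of this 1 line, and total RNA taken at 72 h was hybridized to 1 Affymetrix PrimeView array per culture. Values are log2 RMA signals, in which background is corrected, all arrays share 1 distribution and the probes of a probe set are summarized to 1 number.

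A probe set was used when the array annotation gave it to a single gene. In this way 41 of the 43 genes had a value, through 111 of the 49293 probe sets tested, and 27 of them had more than 1 probe set. *STAT2* was not analysed here, and *USP18*, which encodes the protease that takes ISG15 off its targets, was covered only by a probe set that also names other loci. The account of each gene uses its brightest probe set, chosen by its mean on all 9 arrays, together with any other that passed the test. A probe set passed at a Benjamini-Hochberg FDR under 0.01 in 1 limma model of the 3 groups, adjusted over all 49293. It is called a 2-fold change when the log2 difference also reached 1. A probe set that averaged under 5 on the log2 scale is termed dim. The brightest was dim for 13 of the 41 genes, which left 28 that were not.

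*TDRD9* itself had log2 signals of 6.12, 6.12 and 6.05 with siTDRD9-2, 4.94, 4.64 and 4.28 with siTDRD9-1, and 6.65, 6.80 and 6.93 with siControl. The 3 groups did not overlap, and siTDRD9-1 left the lower signal. Arrays of 1 group correlated at 0.994 to 0.998 and arrays of different groups at 0.988 to 0.995. The poly-A spike-in controls, added to the RNA before labelling, averaged 7.66 with siTDRD9-2, 7.60 with siTDRD9-1 and 8.35 with siControl (exact permutation test of 6 arrays against 3, two-sided, p = 0.0238, the smallest this test can give). Between siTDRD9-2 and siTDRD9-1 their mean differed by 0.056 (exact permutation test, two-sided, p = 0.8, where 3 arrays against 3 cannot go below 0.1). The gap between the 3′ and 5′ ends of the spike-in transcripts was 1.051 with siTDRD9-2, 1.089 with siTDRD9-1 and 1.445 with siControl on the log2 scale, and the probe set for the 3′ end of 18S rRNA averaged 13.42 with siTDRD9-2, 13.41 with siTDRD9-1 and 11.93 with siControl. Both set the 6 arrays apart from the 3 of siControl with the same exact permutation p of 0.0238, and between the siRNAs p was 0.6 and 1. Every difference over siControl below stands beside these 3 signs, and their part in it was not tested. All 6 epithelial markers were well above the dim limit, and *PTPRC*, the pan-leukocyte marker, averaged 3.58.

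Interferons are secreted proteins that bind receptors at the cell surface and signal through JAK kinases and STAT factors, together with IRF9, to a large set of target genes. Many of these targets act against viruses, among them sensors of foreign RNA such as RIG-I (gene *RIGI*) and MDA5 (*IFIH1*), which signal through the adaptor MAVS to induce interferon. The set is also transcribed at a steady level in many tumour lines in the absence of infection. In bulk RNA, a smaller share of cells with a transcript and less of it per cell cannot be told apart.

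The DNA element best known for the response to type I interferon is the interferon-stimulated response element, whose core was searched here as GAAANNGAAA, or TTTCNNTTTC on the other strand, where N is any base. In the 250 bases upstream of the RefSeq start site (GRCh38.p14) the core was present for 20 of 34 matched members (58.8%), against 3.71% of all 27305 genes. It was found for 4 of the 11 matched members with a passing probe set, and for 16 of the 22 other measured members. The search required exactly 2 free bases, so copies with 1 base between (such as gaaacgaaa), on either strand, were missed. Among members without a match, such a copy lies in the 250 bases of *RIGI*, *OAS1*, *IFI35*, *SP110* and *CMPK2*, which had passing probe sets. It also lies in those of *IFI16*, which had none. The 2 counts rest on this spacing, and these copies would add more to the passing members than to the others. The counts were not compared by a test, and no difference is read from them. The promoters of 4 members whose signals differed between siTDRD9-2 and another group are shown as the 150 bases before the start site, 5′ to 3′ on the gene's strand, with matches to the core in capitals. *ISG15* lies at chr1:1013347-1013496 (plus strand), *ISG20* at chr15:88638866-88639015 (plus strand), *IFI44L* at chr1:78620298-78620447 (plus strand) and *OAS1* at chr12:112906812-112906961 (plus strand).
ISG15: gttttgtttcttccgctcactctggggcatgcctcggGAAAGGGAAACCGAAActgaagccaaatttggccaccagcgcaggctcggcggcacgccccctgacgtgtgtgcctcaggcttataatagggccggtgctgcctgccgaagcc
ISG20: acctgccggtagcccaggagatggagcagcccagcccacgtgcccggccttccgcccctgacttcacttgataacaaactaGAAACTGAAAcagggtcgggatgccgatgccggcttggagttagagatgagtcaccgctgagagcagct
IFI44L: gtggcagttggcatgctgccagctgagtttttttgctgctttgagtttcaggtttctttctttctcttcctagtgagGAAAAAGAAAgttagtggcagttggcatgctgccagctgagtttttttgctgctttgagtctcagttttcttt
OAS1: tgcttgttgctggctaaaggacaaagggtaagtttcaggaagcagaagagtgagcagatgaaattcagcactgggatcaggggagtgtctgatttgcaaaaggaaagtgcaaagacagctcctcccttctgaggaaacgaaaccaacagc
In *ISG15* the capitals hold 2 matches that share bases. *ISG20* and *IFI44L* have 1 match each in the stretch shown. *OAS1* has no match with exactly 2 free bases in the 250 bases searched. Near its end, however, its stretch reads gaaacgaaa, with 1 base between, which the search did not count. A match is a description of the letters and was not tied to the signals below.

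Across the 41 genes the pattern differed by siRNA. With siTDRD9-2, 5 member probe sets fell, in *OAS1* (3 probe sets) and *IFI44L* (2 probe sets), and 1 rose, in *IRF1*. With siTDRD9-1, 8 member probe sets rose, in *CMPK2*, *IRF1*, *IRF7*, *IRF9*, *PARP9*, *RIGI* and *SP110*, and 0 fell. Set directly against siTDRD9-1, siTDRD9-2 gave lower signals at 10 probe sets, in *CMPK2*, *IFI35*, *IRF7*, *ISG15*, *ISG20*, *OAS1*, *RIGI* and *SP110*, and higher signals at 0. The plot of each siRNA against siControl shows these shifts by role.

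**Figure D1:**
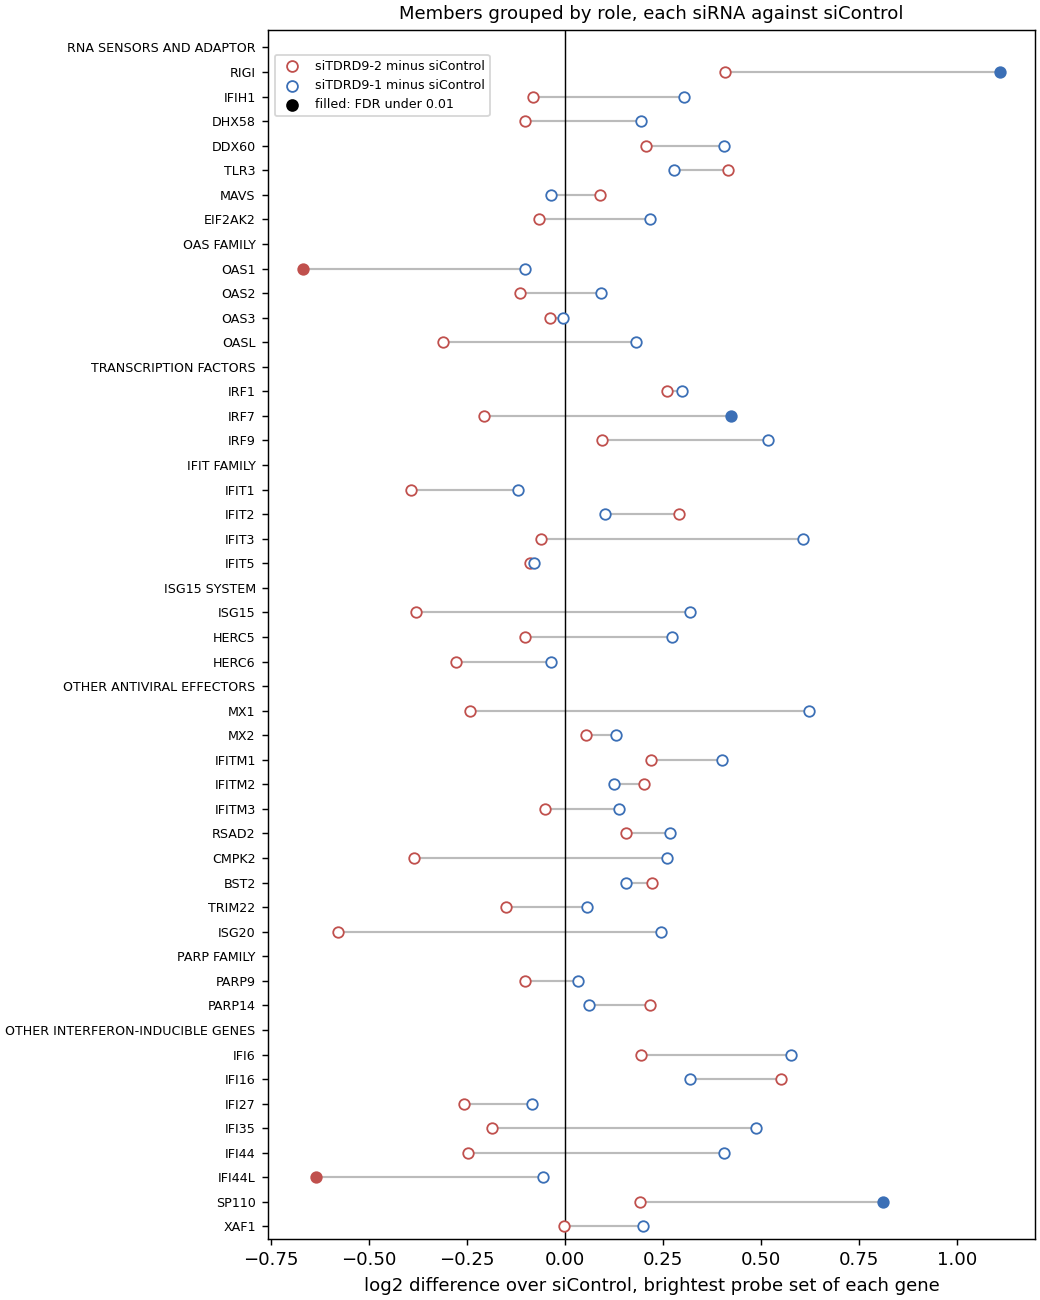
Log2 difference over siControl at the brightest probe set of each of the 41 genes, grouped by role (siTDRD9-2 in red, siTDRD9-1 in blue, 3 cultures per group, filled points with an FDR under 0.01). For most genes the siTDRD9-2 point lies to the left of the siTDRD9-1 point, with *RIGI* the furthest right at 1.11 and *OAS1* the furthest left at -0.67.

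The counts are read beside the share of all 49293 probe sets that passed in the same direction. With siTDRD9-2 against siControl, the 5 lower probe sets were 4.50% of the 111, against a background of 2.23%, and the 1 higher probe set was 0.901%, against 2.95%. At an unadjusted p under 0.05 there were 21 lower and 12 higher. With siTDRD9-1 against siControl, the 8 higher probe sets were 7.21% of the 111, against 2.41% of all, and the background for the 0 lower ones was 2.12%. At an unadjusted p under 0.05, 32 were higher and 1 was lower. For siTDRD9-2 against siTDRD9-1, the 10 lower probe sets were 9.01% of the 111, against 1.03% of all, and the background for the 0 higher ones was 0.921%. Here 39 were lower and 1 was higher at an unadjusted p under 0.05. Both differences over siControl use the same 3 siControl arrays.

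At an FDR under 0.05 more probe sets were called. With siTDRD9-2 over siControl 10 probe sets were lower (9.01%, against 5.76% of all) and 5 higher (4.50%, against 6.75%), and *RIGI* had probe sets among both. With siTDRD9-1 over siControl 18 were higher (16.2%, against 5.08%) and 0 lower (background 5.61%), with *IFI6*, *IFI35*, *IFIT3*, *PARP14*, *RSAD2* and *TRIM22* added to the genes above. For siTDRD9-2 over siTDRD9-1 23 were lower (20.7%, against 2.93%) and 0 higher (background 2.93%), with *IFI44*, *IFI44L*, *IFIT3*, *IRF9* and *OASL* added.

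Few members reached a 2-fold change. With siTDRD9-2 against siControl, 1 *OAS1* probe set was 2-fold lower (background 0.205%). With siTDRD9-1 against siControl, 1 *RIGI* probe set was 2-fold higher (background 0.489%). For siTDRD9-2 against siTDRD9-1, 1 probe set each of *OAS1* and *RIGI* was 2-fold lower (background 0.195%). No gene had all of its probe sets past this limit.

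The medians over the 41 brightest probe sets were small. The median log2 difference was -0.07 for siTDRD9-2 over siControl, where the median over all 18132 genes was -0.06. It was 0.22 for siTDRD9-1 over siControl, against -0.03 over all genes. For siTDRD9-2 over siTDRD9-1 it was -0.24, against -0.02 over all genes, and 34 of the 41 differences were below 0 (82.9%, against 54.8% of all genes). Over the 28 genes that were not dim this last median was -0.38 (0.002 over all genes that were not dim), with 24 below 0. These values describe the set and were not tested.

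**Figure D2:**
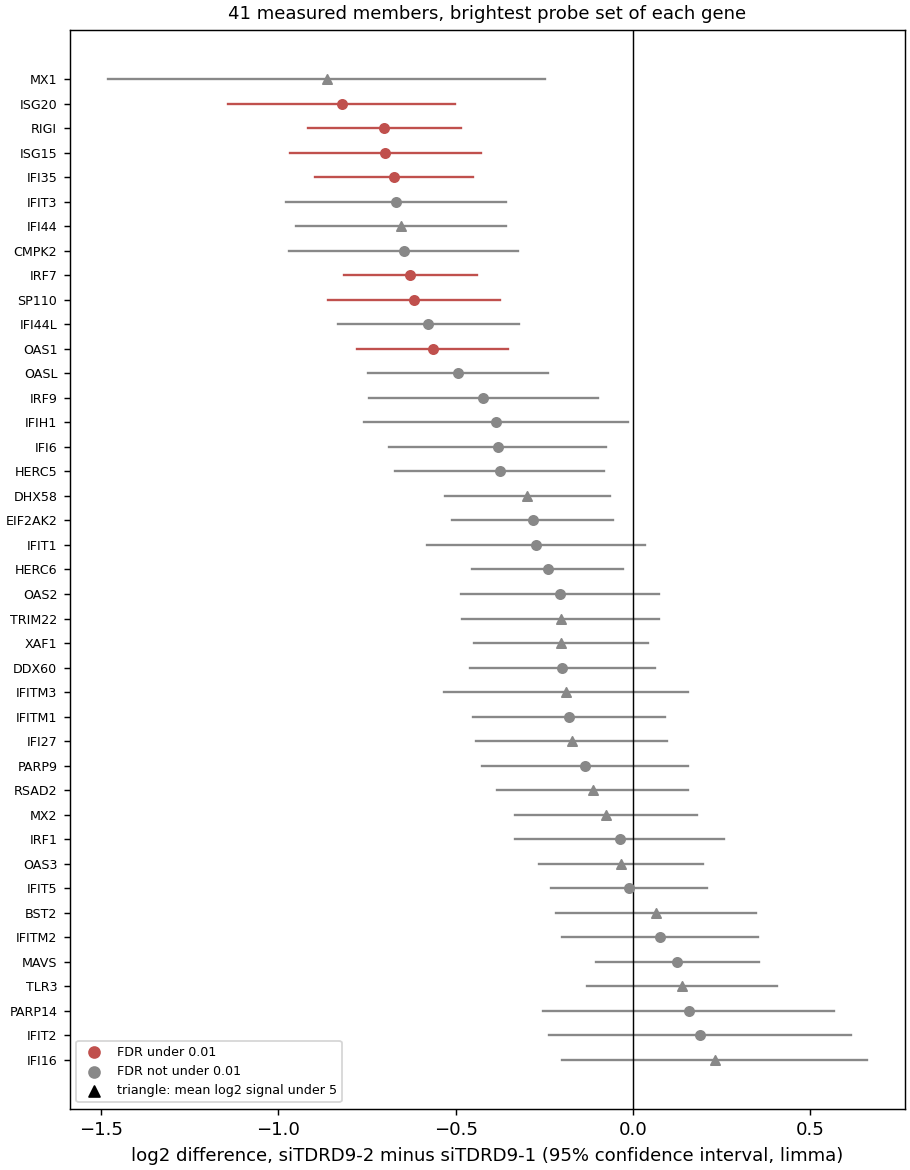
Log2 difference between siTDRD9-2 and siTDRD9-1 at the brightest probe set of the 41 genes, ordered by size, with the 95% confidence interval from limma (red, FDR under 0.01, and triangles for dim probe sets). The 7 red genes lie between -0.82 (*ISG20*) and -0.57 (*OAS1*), while *MX1* has the lowest value at -0.86 with a wide interval.

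Among the RNA sensors, *RIGI* moved with siTDRD9-1 and differed between the siRNAs. Its brightest probe set gave 6.66, 6.86 and 6.61 with siTDRD9-2, 7.34, 7.55 and 7.34 with siTDRD9-1, and 6.27, 6.31 and 6.33 with siControl. The 3 groups did not overlap. The signal was 2.16-fold higher with siTDRD9-1 than with siControl (log2 difference 1.11, standard error 0.0986, adjusted p = 9.98e-05) and 1.63-fold lower with siTDRD9-2 than with siTDRD9-1 (log2 difference -0.70, adjusted p = 0.00225). With siTDRD9-2 against siControl the log2 difference of 0.41 had an adjusted p of 0.0197.

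The probe sets of *RIGI* disagreed on siTDRD9-2. A second one gave 5.84, 5.99 and 5.89 with siTDRD9-2, 6.96, 7.18 and 6.62 with siTDRD9-1, and 6.36, 6.41 and 6.53 with siControl. Here all siTDRD9-2 cultures lay below siControl, where the brightest probe set had them above it. The log2 difference between siTDRD9-2 and siTDRD9-1 was -1.01 (adjusted p = 0.0014), and those over siControl were -0.52 with siTDRD9-2 (adjusted p = 0.0221) and 0.48 with siTDRD9-1 (adjusted p = 0.0349). The remaining one differed by -0.69 between siTDRD9-2 and siTDRD9-1 (adjusted p = 0.0142). The direction between the 2 siRNAs was therefore shared by all 3 probe sets, and that of siTDRD9-2 over siControl was not. With the 3 averaged, the rise of *RIGI* with siTDRD9-1 passed at a smaller value (0.61).

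The other sensors did not pass in any comparison. *IFIH1*, whose product MDA5 binds long double-stranded RNA, differed by -0.08 with siTDRD9-2 and by 0.30 with siTDRD9-1 over siControl. *DDX60*, a helicase proposed to act with RIG-I, differed by 0.21 and 0.41 in the same order. *EIF2AK2* encodes the kinase PKR, which halts translation on binding double-stranded RNA, and differed by -0.07 and 0.22. *DHX58* (the regulator LGP2) and *TLR3* (the endosomal receptor for double-stranded RNA) were dim, with means of 4.55 and 2.31. *MAVS* had 7 probe sets, all with log2 differences between -0.23 and 0.38 over the 3 comparisons.

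In the OAS family, whose enzymes make 2′-5′ oligoadenylates that activate RNase L, *OAS1* fell with siTDRD9-2. Its probe set with the largest difference gave 5.71, 5.72 and 6.21 with siTDRD9-2, 7.11, 7.13 and 6.97 with siTDRD9-1, and 6.85, 6.87 and 7.19 with siControl. All siTDRD9-2 cultures lay below all others, while the siTDRD9-1 and siControl cultures overlapped. The signal was 2.13-fold lower with siTDRD9-2 than with siControl (log2 difference -1.09, standard error 0.143, adjusted p = 0.000694) and 2.29-fold lower than with siTDRD9-1 (log2 difference -1.19, adjusted p = 0.00101).

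All 4 *OAS1* probe sets had their siTDRD9-2 cultures below both other groups. At the brightest one the values were 6.10, 6.29 and 6.35 with siTDRD9-2, 6.80, 6.87 and 6.77 with siTDRD9-1, and 6.82, 6.90 and 7.03 with siControl. The differences were -0.67 over siControl (adjusted p = 0.00132) and -0.57 over siTDRD9-1 (adjusted p = 0.00677). The third passing probe set differed by -0.61 between siTDRD9-2 and siControl (adjusted p = 0.00392), and the last one by -0.89 (adjusted p = 0.0134). With the probe sets averaged *OAS1* passed at -0.81 over siControl and -0.71 over siTDRD9-1. *OASL*, an OAS-like protein that enhances RIG-I signalling, had a difference of -0.31 between siTDRD9-2 and siControl (adjusted p = 0.112) and of -0.49 between siTDRD9-2 and siTDRD9-1 (adjusted p = 0.0293). *OAS2* and *OAS3* had single-gene differences between -0.21 and 0.09 at their brightest probe sets, and that of *OAS3* was dim.

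**Figure D3:**
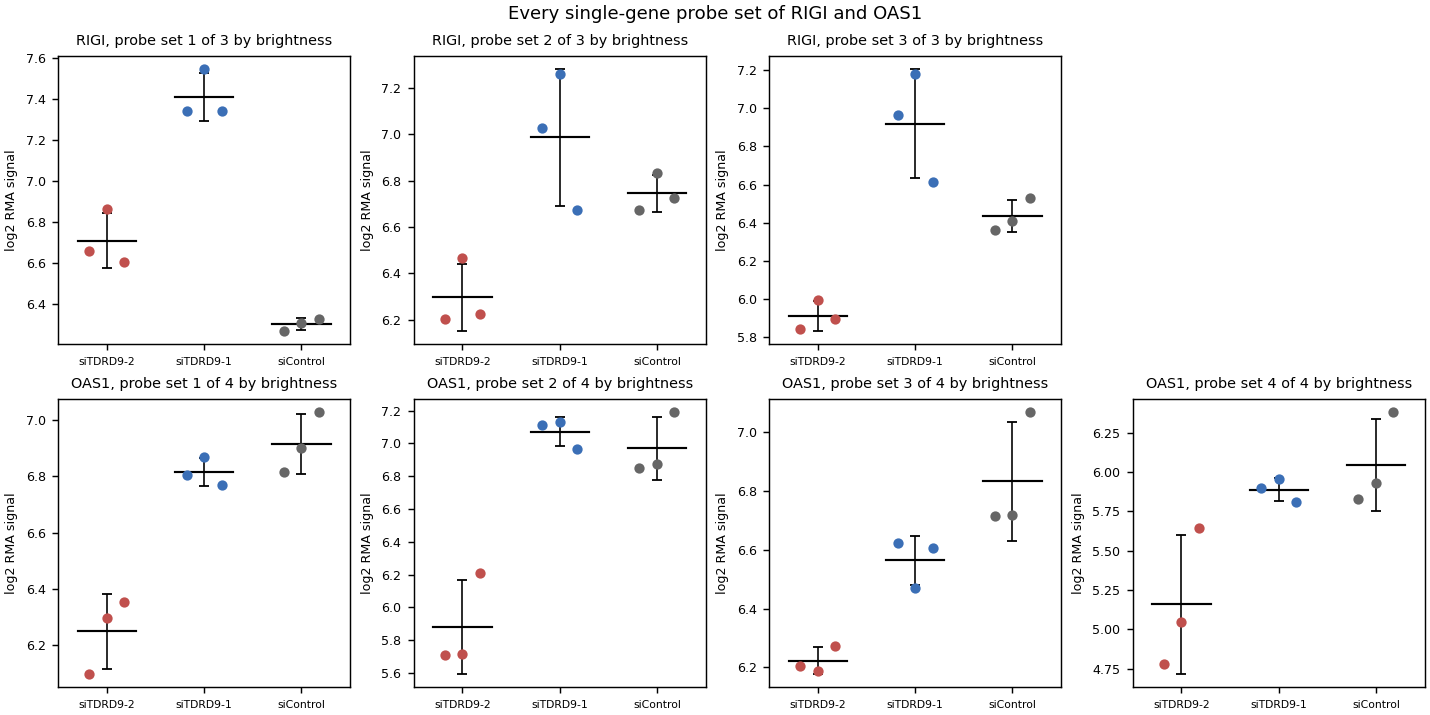
Log2 RMA signal of every single-gene probe set of *RIGI* (3, upper row) and *OAS1* (4, lower row), by group, with 1 point per culture, the mean as a line and the SD as a bar (n = 3). The siTDRD9-2 cultures are lowest in all panels but the brightest of *RIGI*, where siControl lies lowest at 6.27 to 6.33.

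The 3 interferon regulatory factors of the set all had a probe set that rose with siTDRD9-1, but these calls depended on single arrays. With 1 array left out at a time, the rise passed in 1 of 9 fits for *IRF7* and in 3 of 9 for *IRF1*. For the 2 passing *IRF9* probe sets it passed in 5 and in 2 of the 9 fits. *IRF7*, which drives the amplification of type I interferon, gave 5.43, 5.60 and 5.58 with siTDRD9-2, 6.13, 6.25 and 6.13 with siTDRD9-1, and 5.75, 5.75 and 5.73 with siControl. The groups did not overlap, with siTDRD9-1 highest and siTDRD9-2 lowest. The log2 difference was 0.42 between siTDRD9-1 and siControl (standard error 0.0858, adjusted p = 0.00916), -0.20 between siTDRD9-2 and siControl (adjusted p = 0.157) and -0.63 between siTDRD9-2 and siTDRD9-1 (adjusted p = 0.00191).

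*IRF9*, the DNA-binding partner of the STAT factors in the type I response, rose with siTDRD9-1 at 2 of its 4 probe sets. One gave 6.03, 5.99 and 5.88 with siTDRD9-2, 6.58, 6.50 and 6.33 with siTDRD9-1, and 6.03, 5.84 and 5.91 with siControl. The siTDRD9-1 cultures lay above all others, and siTDRD9-2 overlapped siControl. The log2 differences of the 2 passing probe sets between siTDRD9-1 and siControl were 0.55 (adjusted p = 0.00477) and 0.56 (adjusted p = 0.00676). At the brightest probe set the difference was 0.52 (adjusted p = 0.0447), and between siTDRD9-2 and siTDRD9-1 it was -0.42 there (adjusted p = 0.127).

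*IRF1*, a factor induced mainly by interferon gamma, had the only probe set that rose with siTDRD9-2, and it rose with siTDRD9-1 as well. This probe set gave 6.49, 6.78 and 6.89 with siTDRD9-2, 6.70, 6.80 and 6.49 with siTDRD9-1, and 6.17, 6.004 and 5.93 with siControl. Both siRNA groups lay above siControl and overlapped each other. The log2 differences over siControl were 0.68 with siTDRD9-2 (adjusted p = 0.00461) and 0.63 with siTDRD9-1 (adjusted p = 0.00824), with a standard error of 0.124. At the brightest of the 4 probe sets they were 0.26 (adjusted p = 0.255) and 0.30 (adjusted p = 0.205) in the same order. When the probe sets of each gene were averaged, *IRF1* passed with neither siRNA (0.18 with siTDRD9-2 and 0.35 with siTDRD9-1). The spike-in and 18S rRNA signals also separated siControl from both siRNA groups, as given above.

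*ISG15*, a ubiquitin-like modifier and one of the first described interferon-induced proteins, was lowest with siTDRD9-2. The cultures gave 9.91, 10.04 and 9.80 with siTDRD9-2, 10.65, 10.79 and 10.40 with siTDRD9-1, and 10.19, 10.48 and 10.20 with siControl. The siTDRD9-2 cultures lay below all others, while siTDRD9-1 overlapped siControl. The signal was 1.62-fold lower with siTDRD9-2 than with siTDRD9-1 (log2 difference -0.70, standard error 0.123, adjusted p = 0.00747). The differences over siControl were -0.38 with siTDRD9-2 (adjusted p = 0.0693) and 0.32 with siTDRD9-1 (adjusted p = 0.133). *HERC5*, the main ligase that attaches ISG15 to proteins, differed by -0.10 with siTDRD9-2 and 0.27 with siTDRD9-1, and its relative *HERC6* by -0.28 and -0.04, none of which passed.

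The IFIT proteins bind viral RNA ends and block its translation. *IFIT1* gave 7.74, 7.63 and 7.48 with siTDRD9-2, 7.83, 8.05 and 7.79 with siTDRD9-1, and 7.82, 7.87 and 8.34 with siControl. Although the siTDRD9-2 cultures lay lowest, no difference passed. The values were -0.39 between siTDRD9-2 and siControl (95% confidence interval -0.70 to -0.09, adjusted p = 0.0971) and -0.12 between siTDRD9-1 and siControl (95% confidence interval -0.43 to 0.19, adjusted p = 0.694). *IFIT3*, which stabilizes IFIT1 on RNA, gave 5.21, 5.25 and 5.19 with siTDRD9-2, 6.07, 6.09 and 5.49 with siTDRD9-1, and 5.33, 5.33 and 5.18 with siControl. Its difference of -0.67 between siTDRD9-2 and siTDRD9-1 had an adjusted p of 0.0185, and that of 0.61 between siTDRD9-1 and siControl one of 0.0189. *IFIT2* and *IFIT5* had differences between -0.09 and 0.29 at their brightest probe sets.

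Of the other 10 antiviral effectors, *ISG20* and *CMPK2* passed. *ISG20*, an exonuclease that degrades single-stranded RNA, gave 7.77, 7.91 and 7.75 with siTDRD9-2, 8.68, 8.90 and 8.31 with siTDRD9-1, and 8.33, 8.60 and 8.22 with siControl. As for *ISG15*, the siTDRD9-2 cultures lay below all others and the remaining 2 groups overlapped. The difference between siTDRD9-2 and siTDRD9-1 was -0.82 (1.77-fold lower, standard error 0.146, adjusted p = 0.00783), and that between siTDRD9-2 and siControl was -0.58 (adjusted p = 0.0244).

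*CMPK2*, a mitochondrial nucleotide kinase next to *RSAD2* in the genome, passed at a dim probe set. The values there were 4.83, 4.84 and 4.85 with siTDRD9-2, 5.46, 5.33 and 5.30 with siTDRD9-1, and 4.70, 4.69 and 4.58 with siControl, with no overlap between the groups. The difference was 0.71 between siTDRD9-1 and siControl (adjusted p = 0.000467) and -0.52 between siTDRD9-2 and siTDRD9-1 (adjusted p = 0.00485). At its brightest probe set the difference between siTDRD9-2 and siTDRD9-1 was -0.65 (adjusted p = 0.0257), and that between siTDRD9-2 and siControl was -0.38, against 0.19 at the passing one. The probe sets of *CMPK2* thus differed in sign for siTDRD9-2 over siControl, as those of *RIGI* did. Averaged, they gave 0.37 for *CMPK2* with siTDRD9-1 over siControl, which passed.

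Neither *MX1*, a dynamin-like GTPase that traps viral particles, nor the other effectors passed. *MX1* gave 3.57, 3.46 and 2.97 with siTDRD9-2, 4.43, 4.76 and 3.40 with siTDRD9-1, and 3.48, 3.77 and 3.47 with siControl. It was dim and its siTDRD9-1 cultures spread over more than 1 log2 unit. *MX2*, *IFITM3* (a membrane protein that blocks viral entry), *RSAD2* (viperin), *BST2* (tetherin) and *TRIM22* were dim as well. *IFITM1* and *IFITM2* had brightest-probe-set differences between -0.18 and 0.40.

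The 2 PARP genes encode members of the ADP-ribosyltransferase family that are induced by interferon. *PARP9* rose with siTDRD9-1 at 1 of 3 probe sets, which gave 5.69, 5.74 and 5.61 with siTDRD9-2, 6.12, 6.30 and 5.58 with siTDRD9-1, and 5.35, 5.10 and 4.98 with siControl. Both siRNA groups lay above siControl, and siTDRD9-1 and siTDRD9-2 overlapped. The difference between siTDRD9-1 and siControl was 0.85 (standard error 0.165, adjusted p = 0.00706), and that between siTDRD9-2 and siControl was 0.54 (adjusted p = 0.0542). At the brightest probe set the differences were -0.10 with siTDRD9-2 and 0.04 with siTDRD9-1, and with the probe sets averaged the rise of *PARP9* did not pass (0.27). *PARP14* had 6 probe sets and none passed, though a dim one was 0.85 above siControl with siTDRD9-2 (adjusted p = 0.0121) and 0.84 above it with siTDRD9-1 (adjusted p = 0.0144).

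Among the 8 other interferon-inducible genes, *IFI44L*, *IFI35* and *SP110* passed. *IFI44L*, a gene strongly induced by type I interferon, fell with siTDRD9-2 at 2 of its 3 probe sets. The brightest gave 5.57, 5.25 and 5.20 with siTDRD9-2, 6.03, 5.95 and 5.76 with siTDRD9-1, and 6.04, 5.99 and 5.88 with siControl. The siTDRD9-2 cultures lay below all others and the remaining 2 groups overlapped. The differences of the 2 passing probe sets between siTDRD9-2 and siControl were -0.63 (adjusted p = 0.0049) and -0.67 (adjusted p = 0.00768). Between siTDRD9-2 and siTDRD9-1 they were -0.58 (adjusted p = 0.0146) and -0.70 (adjusted p = 0.0113), just outside the limit.

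*IFI35*, a leucine zipper protein induced by interferon, gave 9.06, 9.08 and 9.32 with siTDRD9-2, 9.95, 9.83 and 9.70 with siTDRD9-1, and 9.27, 9.36 and 9.38 with siControl. The siTDRD9-1 cultures lay above all others, and siTDRD9-2 overlapped siControl. The difference was -0.67 between siTDRD9-2 and siTDRD9-1 (standard error 0.102, adjusted p = 0.00336), and 0.49 between siTDRD9-1 and siControl (adjusted p = 0.0106). Its other probe set differed by 0.50 between siTDRD9-1 and siControl (adjusted p = 0.0102) and by -0.45 between siTDRD9-2 and siTDRD9-1 (adjusted p = 0.0255).

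*SP110*, a nuclear body protein, rose with siTDRD9-1 at the brightest of its 5 probe sets. It gave 6.36, 6.33 and 6.24 with siTDRD9-2, 7.01, 6.91 and 6.87 with siTDRD9-1, and 6.36, 5.93 and 6.07 with siControl. The siTDRD9-1 cultures stood above both other groups, which overlapped. The difference was 0.81 between siTDRD9-1 and siControl (standard error 0.111, adjusted p = 0.00102) and -0.62 between siTDRD9-2 and siTDRD9-1 (adjusted p = 0.00823). The other 4 probe sets differed by -0.04 to 0.17 between siTDRD9-1 and siControl, and with the probe sets averaged *SP110* passed neither over siControl (0.20) nor between the siRNAs (-0.36). *IFI6*, *IFI44*, *IFI16*, *IFI27* and *XAF1* did not pass, and the last 4 were dim. *IFI6*, a small mitochondrial and endoplasmic reticulum protein, differed by 0.58 between siTDRD9-1 and siControl (adjusted p = 0.0224).

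In all, 12 genes had a passing probe set in some comparison and 29 had none. The share of all genes under this rule is not given here, so these counts are not read as a result about the set. The probe sets of those 29 had log2 differences from -0.39 (*IFIT1*) to 0.85 (*PARP14*) with siTDRD9-2 and from -0.23 (*MAVS*) to 0.84 (*PARP14*) with siTDRD9-1 over siControl. Between siTDRD9-2 and siTDRD9-1 they ran from -0.86 (*MX1*) to 0.38 (*MAVS*).

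**Figure D4:**
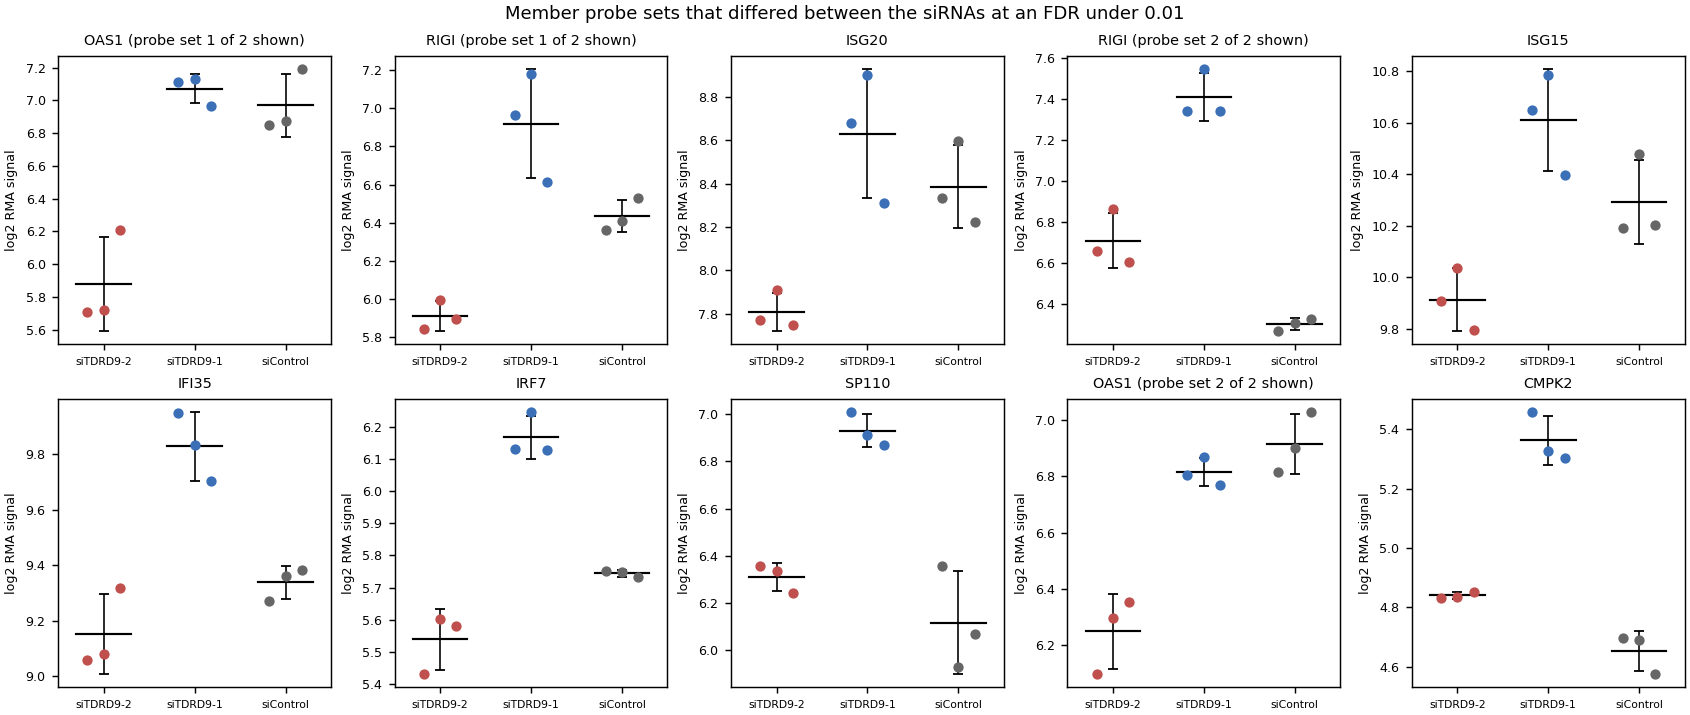
Log2 RMA signal of the 10 member probe sets that differed between siTDRD9-2 and siTDRD9-1 at an FDR under 0.01, ordered by the size of the difference, with 1 point per culture, the mean as a line and the SD as a bar (n = 3). In all 10 panels the siTDRD9-2 and siTDRD9-1 cultures do not overlap, while siControl lies between them, level with 1 of them or, for 1 *RIGI* probe set, *SP110* and *CMPK2*, with a mean below both.

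Without any threshold on the test, the 3 siTDRD9-2 cultures lay wholly below the 3 siTDRD9-1 cultures at 39 of the 111 probe sets (35.1%), against 10.4% of all probe sets. They lay wholly above them at 1 (0.901%, against 12.9%). Against siControl, the siTDRD9-2 cultures lay wholly below at 23 probe sets (20.7%, against 15.7% of all) and wholly above at 16 (14.4%, against 13.9%). The siTDRD9-1 cultures lay wholly below siControl at 1 (0.901%, against 14.8%) and wholly above it at 30 (27.0%, against 12.3%).

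Single cultures weighed on these counts. Over the 28 genes that were not dim, replicate 3 was the lowest of its group for 20 genes with siTDRD9-2 and for 20 genes with siTDRD9-1, while siControl replicate 1 was the lowest for 14. Without siTDRD9-1 replicate 3, siTDRD9-2 was lower than siTDRD9-1 at 18 probe sets in place of 10, and siTDRD9-1 was higher than siControl at 16 in place of 8. The shares of all probe sets that passed there were 1.03% and 2.04%. Without siTDRD9-1 replicate 1 these counts were 1 and 3, and the shares of all probe sets were 0.284% and 0.897%. Without siTDRD9-1 replicate 2 they were 3 and 3, without siTDRD9-2 replicate 1 they were 3 and 5, and without siTDRD9-2 replicate 2 they were 4 and 4. Without siControl replicate 2 they were 6 and 3, without siControl replicate 1 they were 7 and 4, and without siControl replicate 3 they were 7 and 3. In these 6 fits the shares of all probe sets ran from 0.400% to 0.793% between the siRNAs and from 1.11% to 1.99% for siTDRD9-1 over siControl, against 1.03% and 2.41% with all arrays. The count of 5 falls with siTDRD9-2 was 2 without siTDRD9-2 replicate 2, siControl replicate 2 or siControl replicate 3 (0.818% to 0.964% of all probe sets), and 3 without siTDRD9-2 replicate 1 or siControl replicate 1 (1.38% and 1.68%), against 2.23% of all with every array. The rise of *IRF1* with siTDRD9-2 was lost without siTDRD9-2 replicate 2, siTDRD9-2 replicate 3, siControl replicate 2 or siControl replicate 3. There were 3 rises with siTDRD9-2 without siTDRD9-1 replicate 3 (3.01% of all probe sets).

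The fit mattered most for the comparison between the siRNAs. With only the 6 arrays of siTDRD9-2 and siTDRD9-1 in the model, 1 member probe set passed (*OAS1*), where the share of all probe sets that passed in this direction was 0.304%. Of the 24 member differences that passed, 5 passed under every alternative that gave a value for them, and none changed sign. These 5 were the rises of *RIGI* (at its brightest probe set) and *CMPK2* with siTDRD9-1, the falls of 2 *OAS1* probe sets with siTDRD9-2, and the lower signal of 1 of those *OAS1* probe sets with siTDRD9-2 than with siTDRD9-1.

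Upstream of the set, the interferon genes themselves gave dim signals. Of 22 interferon genes listed, 17 were measured, all of them dim, with means of the brightest probe set between 2.06 and 4.26, and 0 passed in any comparison. At an unadjusted p under 0.05 there was 1 probe set higher and 1 lower with siTDRD9-1, and there were 0 with siTDRD9-2 or between the siRNAs. Of the receptor and JAK-STAT list, 10 of 11 genes were measured through 23 probe sets. With siTDRD9-2 over siControl 6 of them rose (26.1%, against 2.95% of all probe sets) and 4 fell (17.4%, against 2.23%). With siTDRD9-1 over siControl 6 rose (26.1%, against 2.41%) and 0 fell. Between siTDRD9-2 and siTDRD9-1 2 were higher (8.70%, against 0.921%) and 5 lower (21.7%, against 1.03%).

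*IFNAR1*, which encodes a chain of the type I interferon receptor, was lower with siTDRD9-2 than with siTDRD9-1 at all 4 probe sets. One gave 5.81, 5.63 and 5.92 with siTDRD9-2, 7.05, 7.12 and 7.06 with siTDRD9-1, and 6.60, 6.86 and 6.84 with siControl. The 3 groups did not overlap at any of the 4 probe sets, with siTDRD9-2 lowest and siTDRD9-1 highest. The differences between siTDRD9-2 and siTDRD9-1 were -0.76, -0.86, -1.29 and -1.31, with adjusted p from 0.00017 to 0.00127. Over siControl, 2 of the probe sets fell with siTDRD9-2 (-0.98 and -0.85) and 1 rose with siTDRD9-1 (0.48). With the 4 averaged *IFNAR1* passed at -0.64 with siTDRD9-2 and 0.41 with siTDRD9-1.

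*IFNLR1*, the specific chain of the type III interferon receptor, was dim and gave 4.02, 3.42 and 3.85 with siTDRD9-2, 5.20, 5.51 and 4.63 with siTDRD9-1, and 4.22, 4.28 and 4.28 with siControl. The difference between siTDRD9-2 and siTDRD9-1 was -1.35 (adjusted p = 0.00299). *IL10RB*, the chain that type III interferon shares with IL-10, fell with siTDRD9-2 at 2 probe sets (-0.674 and -0.996). *STAT3*, a transcription factor best known for the response to IL-6, rose with both siRNAs at 2 of its 3 probe sets, by 0.52 and 0.70 with siTDRD9-2 and by 0.57 and 0.68 with siTDRD9-1. With the 3 averaged *STAT3* passed at 0.40 with siTDRD9-2 and 0.44 with siTDRD9-1. *IL10RB* and *STAT3* were named after their values were seen, and complete the passing genes of the list. *IFNGR1*, a chain of the interferon gamma receptor, rose with both siRNAs at its 2 probe sets, by 0.67 and 1.11 with siTDRD9-2 and by 0.55 and 1.07 with siTDRD9-1. *JAK1*, a kinase used by all 3 types of interferon receptor, rose with siTDRD9-2 at 2 of its probe sets (1.38 and 0.76) and with siTDRD9-1 at 1 (0.82), and its brightest probe set was higher with siTDRD9-2 than with siTDRD9-1 by 0.64 (adjusted p = 0.00798). When the probe sets of each gene were averaged, the rise of *JAK1* with siTDRD9-1 did not pass (0.17), and that with siTDRD9-2 passed at 0.81.

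**Figure D5:**
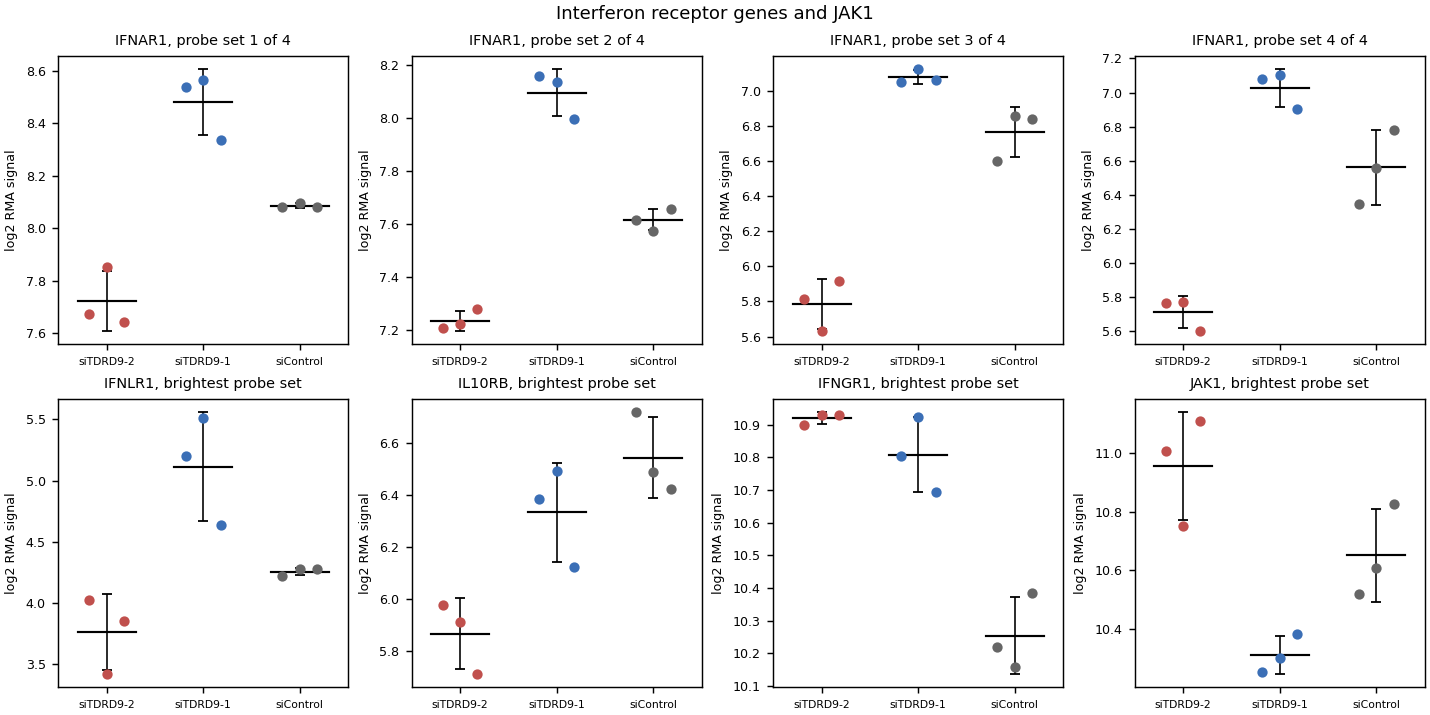
Log2 RMA signal of the 4 *IFNAR1* probe sets and of the brightest probe set of *IFNLR1*, *IL10RB*, *IFNGR1* and *JAK1*, by group, with 1 point per culture, the mean as a line and the SD as a bar (n = 3). In the *IFNAR1* and *IFNLR1* panels siTDRD9-2 is lowest and siTDRD9-1 highest, while *IFNGR1* is higher with both siRNAs than with siControl.

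Of 24 other genes of nucleic acid sensing, 23 were measured through 61 probe sets. With siTDRD9-2 over siControl 0 of these rose and 1 fell (1.64%), and with siTDRD9-1 over siControl 1 rose and 1 fell (1.64% each), all below the shares over all probe sets. Here *PRKRA*, which encodes an activator of PKR, fell with both siRNAs (-0.56 with siTDRD9-2, -0.60 with siTDRD9-1). *ADAR*, the enzyme that edits adenosine in double-stranded RNA, rose with siTDRD9-1 at 1 probe set, which gave 7.37, 7.72 and 7.28 with siTDRD9-2, 7.86, 7.74 and 7.80 with siTDRD9-1, and 6.72, 6.88 and 5.71 with siControl (siTDRD9-1 over siControl 1.36, adjusted p = 0.00469). At its brightest probe set the differences were -0.003 with siTDRD9-2 and 0.09 with siTDRD9-1, and with its 6 averaged the rise of *ADAR* passed at 0.50. Between siTDRD9-2 and siTDRD9-1, 0 of the 61 passed, with 3 higher and 5 lower at an unadjusted p under 0.05. At that limit 14 were higher and 2 lower with siTDRD9-1 over siControl, and 4 higher and 3 lower with siTDRD9-2 over siControl. The share of all probe sets at this limit is not given here.

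A second list held 42 interferon-induced genes outside the set, of which 40 were measured through 125 probe sets. With siTDRD9-2, 2 of these probe sets rose (1.60%, against 2.95% of all) and 1 fell (0.800%, against 2.23%). With siTDRD9-1, 4 rose (3.20%, against 2.41%) and 4 fell (3.20%, against 2.12%), the 4 falls all in 1 gene. The single genes are given as values and are not read as a result about the list. *ZNFX1*, an RNA helicase that senses double-stranded RNA, rose at 1 probe set by 0.83 with siTDRD9-2 and by 0.87 with siTDRD9-1. At its brightest probe set *ZNFX1* differed by -0.004 and 0.05 in the same order, and with both averaged it did not pass (0.41 and 0.46). *LGALS3BP*, a secreted glycoprotein, rose with siTDRD9-1 (0.81). *TRIM5*, a restriction factor of retroviruses, fell with siTDRD9-2 at 1 of 3 probe sets (-0.55), and with these averaged it did not pass (-0.29). *PLSCR1*, a phospholipid scramblase, fell with siTDRD9-1 at 4 probe sets by 0.51 to 0.53 on the log2 scale. In the comparison of siTDRD9-2 with siTDRD9-1, 0 of the 125 passed, and 14 were higher and 20 lower at an unadjusted p under 0.05. At that limit 25 were higher and 12 lower with siTDRD9-1 over siControl, and 18 higher and 7 lower with siTDRD9-2 over siControl. The median difference between siTDRD9-2 and siTDRD9-1 over the 40 genes was -0.09.

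Of the 11 negative regulators listed, 10 were measured through 26 probe sets. With siTDRD9-2 over siControl 2 rose (7.69%, against 2.95% of all) and 2 fell (7.69%, against 2.23%). With siTDRD9-1 over siControl 1 rose (3.85%, against 2.41%) and 2 fell (7.69%, against 2.12%). *TNFAIP3*, which encodes the deubiquitinase A20, rose at 1 probe set with siTDRD9-2 (0.71) and with siTDRD9-1 (0.51). *PTPN2*, a phosphatase that acts on JAK1, fell at 1 probe set with siTDRD9-2 (-0.42) and at 2 with siTDRD9-1 (-0.45 and -0.50). With siTDRD9-2 *NLRC5*, a regulator of MHC class I genes, rose (0.72) and *CYLD*, a deubiquitinase, fell at 1 probe set (-0.76). With the probe sets averaged neither passed (0.45 for *NLRC5*, -0.29 for *CYLD*), nor did *TNFAIP3* with siTDRD9-1 (0.36). Of the 26, 0 passed between siTDRD9-2 and siTDRD9-1.

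Among the named genes of these pathway lists, the calls that passed with any single array left out were those over siControl of *JAK1*, of *IFNAR1* with siTDRD9-2, of 3 of the 4 *IFNGR1* differences, of 1 *IL10RB* probe set and of *TNFAIP3* with siTDRD9-2, and 3 of the 4 *IFNAR1* differences between the siRNAs. Every other call named from these lists was lost without at least 1 array.

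Markers of leukocytes, in which many of these genes are strongly transcribed, were examined beside the set. Of 6 measured leukocyte markers 3 were dim, and their summed signal was 9.165 to 9.308 with siTDRD9-2, 9.875 to 9.945 with siTDRD9-1 and 9.61 to 9.841 with siControl on the log2 scale. This sum followed *CD68*, a lysosomal protein with a mean of 9.004, which was lower with siTDRD9-2 than with either other group, while *PTPRC* was dim. The fibroblast and endothelial markers were dim for 4 of 6, with sums of 6.997 to 7.022 with siTDRD9-2, 7.165 to 7.403 with siTDRD9-1 and 7.071 to 7.181 with siControl. The part of these markers in the differences between the groups was not tested.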

How the data were processed

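Total RNA of 9 cultures of H1993 cells was measured on PrimeView arrays. The deposited log2 values are RMA signals that the authors computed in Affymetrix Expression Console, and the submitters' processing notes also name limma, with no version. They were not normalized again. In the labels, the text on extraction gives a different cell line and that on labelling a kit for whole transcripts, so each culture was taken as its title and characteristics state. Probe sets were given genes by the array's annotation table. The members and lists were chosen with earlier results of these data known.

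One limma model (R 4.3.3, limma 3.58.1) of 3 groups was fitted to 49293 probe sets, without the 102 controls of the array, with empirical Bayes moderation and Benjamini-Hochberg adjustment. All adjusted p in the text come from it. No list was tested as a set. In data simulated from these arrays, 100 probe sets were changed 2-fold and 100 were changed 1.5-fold, and all others were left unchanged. Of these, 61% and 16% passed for siTDRD9-1 over siControl, and 60% and 12% for siTDRD9-2 over siControl. In the real data more passed (2.41% of all higher and 2.12% lower with siTDRD9-1), so the FDR limit was less strict there. The simulated shares can therefore understate the recovery in the data. Exact permutation tests on values per array used SciPy 1.17.1. *IFI35*, *IFIT1*, *ISG15* and every member with a passing probe set are given in full, and up to 4 passing genes of each pathway list are named, those with the largest differences, with *IL10RB* and *STAT3* added after their values were seen. Promoters came from RefSeq (GRCh38.p14), where 34 members were matched.

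The alternatives changed the model (a fit of the 2 groups compared, the replicate number as a block, array weights, a variance trend), the scaling (cyclic loess, median centring), the features (no dim probe sets, 1 mean per gene), the FDR (0.05) and the arrays (leaving out each once). Precision is limited by how few arrays each group had.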

Additional observations from a re-analysis of the deposited data

Results flagged for a closer look

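For 10 member probe sets the effects of the 2 siRNAs over the same siControl cultures differed by a test of the difference itself (limma, FDR under 0.01), with a lower signal for siTDRD9-2 at each. The log2 differences between siTDRD9-2 and siTDRD9-1 were -1.19 and -0.57 for *OAS1*, -1.01 and -0.70 for *RIGI*, -0.82 for *ISG20*, -0.70 for *ISG15*, -0.67 for *IFI35*, -0.63 for *IRF7*, -0.62 for *SP110* and -0.52 for *CMPK2*. The effects over siControl, with siTDRD9-2 and then siTDRD9-1, had opposite signs for the first *OAS1* value (-1.09 and 0.10), the first *RIGI* value (-0.52 and 0.48), *ISG15* (-0.38 and 0.32), *ISG20* (-0.58 and 0.24), *IFI35* (-0.19 and 0.49) and *IRF7* (-0.20 and 0.42). Both effects were above 0 for the second *RIGI* value (0.41 and 1.11), *SP110* (0.19 and 0.81) and *CMPK2* (0.19 and 0.71), and both below 0 for the second *OAS1* value (-0.67 and -0.10). *TDRD9* also differed between the siRNAs, with 1.48 more log2 signal with siTDRD9-2, so the depth of silencing and the sequence of the siRNA cannot be told apart.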

How the results depend on the processing

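With 3 arrays per group many calls lay near the threshold, and which probe sets passed depended on the fit. For siTDRD9-1 over siControl, the 8 higher member probe sets became 18 at an FDR of 0.05, 4 in the fit of the 2 groups, 27 with array weights and 5 genes with 1 mean per gene, and 3 to 16 with 1 array left out. The 0 lower ones became 1 with array weights, and 0 to 0 with 1 array left out. For siTDRD9-2 over siControl, the 1 higher probe set became 5 at an FDR of 0.05, 2 in the fit of the 2 groups, 2 with a variance trend, 6 with array weights, 2 without dim probe sets, 0 with 1 mean per gene and 0 to 3 with 1 array left out. The 5 lower ones became 10 at an FDR of 0.05, 9 with array weights, 2 genes with 1 mean per gene and 2 to 7 with 1 array left out. For siTDRD9-2 over siTDRD9-1, the 10 lower probe sets became 23 at an FDR of 0.05, 1 in the fit of the 2 groups and 31 with array weights. They became 16 without dim probe sets, 8 of 41 genes with 1 mean per gene, and 1 to 18 with 1 array left out. The median of -0.24 became -0.38 without dim probe sets. These settings also moved the share of all probe sets that passed. With array weights it was 8.84% for higher and 9.21% for lower signals with siTDRD9-1 over siControl (2.41% and 2.12% otherwise), 6.24% and 5.09% with siTDRD9-2 over siControl (2.95% and 2.23%), and 5.92% for lower signals with siTDRD9-2 than siTDRD9-1 (1.03%). Without dim probe sets, where 58 of the 111 member probe sets were left, it was 6.72% for higher signals with siTDRD9-2 over siControl and 2.55% in the last direction. In the fit of the 2 groups it was 1.70% for higher signals with siTDRD9-1, 2.03% for higher signals with siTDRD9-2 and 0.304% in the last direction, and with a variance trend 4.44% for higher signals with siTDRD9-2. With 1 mean per gene, of 18132 genes, it was 1.82% for higher signals with siTDRD9-1, and 2.66% for higher and 2.68% for lower signals with siTDRD9-2. In the last direction it was 1.94% with that setting. The other causes were not tested. With 1 array left out, the medians ran from -0.094 to -0.001 for siTDRD9-2, 0.18 to 0.24 for siTDRD9-1 and -0.29 to -0.22 between the siRNAs.

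Over all probe sets, arrays with the same replicate number did not deviate together. The 9 correlations of deviations ran from -0.15 to 0.15, 2 were over 0.1, and 3 arrays matched their own number best. This does not hold for the members alone. Over the 28 that were not dim, replicate 3 was lowest for 20 with siTDRD9-2, 20 with siTDRD9-1 and 9 with siControl. Whether these shifts were shared between groups was not tested. With the replicate number as a block, 21 of the 24 passing member differences still passed. The 1 higher probe set with siTDRD9-2 became 2 and the 5 lower ones became 7 (2.66% and 2.0% of all probe sets). The 8 higher ones with siTDRD9-1 became 9 (2.27% of all), and the 10 lower ones between the siRNAs became 12 (1.07% of all).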

Other observations

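The 3 probe sets that name a member together with another gene were left out of the counts because no single gene can be read from them. The 2 that the annotation gives to *OAS2* and *OAS3* jointly had log2 signals of 5.36, 5.15 and 5.14 and of 7.59, 7.51 and 7.57 with siTDRD9-2, of 6.22, 6.49 and 6.08 and of 8.41, 8.58 and 8.30 with siTDRD9-1, and of 5.92, 6.06 and 6.35 and of 8.15, 8.31 and 8.53 with siControl. At both, the siTDRD9-2 cultures lay below all others, with log2 differences of -0.89 and -0.78 over siControl (adjusted p = 0.00168 and 0.0013, limma) and of -1.04 and -0.87 over siTDRD9-1 (adjusted p = 0.0015 and 0.00145). The third names 5 loci, *USP18* among them, and gave 6.35, 6.43 and 6.24 with siTDRD9-2, 7.11, 7.11 and 6.79 with siTDRD9-1, and 6.85, 6.94 and 6.79 with siControl. Its differences were -0.52 between siTDRD9-2 and siControl (adjusted p = 0.00887) and -0.66 between siTDRD9-2 and siTDRD9-1 (adjusted p = 0.00469).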
